A study of Homo sapiens with 4 samples.

Results

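The nuclear factor NRF2, encoded by NFE2L2, drives transcription of genes for glutathione synthesis, thioredoxin recycling, quinone and heme breakdown and NADPH supply. In resting cells its adaptor KEAP1 delivers it to a CUL3 ubiquitin ligase for degradation, and oxidants or electrophiles release it. It then pairs with a small MAF protein on antioxidant response elements, short DNA motifs that the repressor BACH1 can also occupy. Expression of 9 NRF2 target genes, GCLC, GCLM, TXN, TXNRD1, SRXN1, NQO1, HMOX1, PGD and OSGIN1, was followed here as a list of established targets among the 58735 gene identifiers measured. All 9 were matched to an identifier and all 9 passed the filter on low values, among 14523 genes tested.

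The cells were HCT116, a human colorectal carcinoma line, sampled 48 h after transfection with small interfering RNA (siRNA). They comprised 2 libraries labelled control siRNA and 2 libraries labelled siRNA targeting KIF26B, a kinesin family gene, each group numbered as replicates 1 and 2. Both groups are the same line, and which KIF26B siRNA each library received is not given in the labels. The value columns of the KIF26B siRNA libraries are headed K_KD1_2 and K_KD2, which may stand for different siRNAs. The paper used 2 independent siRNAs against KIF26B in these cells. The comparison asks which transcripts differ after KIF26B siRNA. Values are FPKM, fragments scaled to gene length and library size, and are not corrected for composition. Summed over the genes tested and divided by the geometric mean of the libraries, they were 0.949 and 0.962 in the controls. In KIF26B siRNA replicates 1 and 2 these sums were 1.045 and 1.048, so comparisons between libraries depend on the scaling.

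The whole reads behind the FPKM values summed to between 18775518 and 24314076 per library. KIF26B itself was at 0.110 and 0.205 FPKM in the control libraries (31 and 73 reads). It was at 0.140 FPKM (43 reads) in the library labelled KIF26B siRNA replicate 1, between both controls, and at 0.0307 FPKM (8 reads) in the library labelled KIF26B siRNA replicate 2. KIF26B was below the filter on low values. The read rate of control replicate 2 was 1.87 times that of control replicate 1 (exact interval 1.22 to 2.95, counting error only). Against both controls the rate was 0.857 in KIF26B siRNA replicate 1 (0.586 to 1.23) and 0.189 in replicate 2 (0.0793 to 0.386). The interval of replicate 1 includes 1, so this library cannot show whether KIF26B was reduced. The paper reports depleting KIF26B in HCT116 cells with siRNA. Each direction given here compares libraries by their labels. The value of the targeted gene was below both controls in only 1 of the 2 libraries that carry its label. Those 2 libraries also lay farther apart than the controls, with a median absolute difference over all genes tested of 0.28 against 0.07 on the log2(FPKM + 1) scale. Mitochondrial genes held 9.80% of the reads in KIF26B siRNA replicate 1 and between 6.98% and 7.87% in the other 3 libraries. A scaling to an equal sum without mitochondrial genes was among the alternatives, and the cause of this share was not tested. Of 5 epithelial markers, KRT8, KRT18, EPCAM and CDH1 were between 17.7 and 485 FPKM in every library and VIL1 was at or below 0.0368 FPKM. KRT8 was at 485 and 482 FPKM in the controls and at 369 and 350.1 FPKM in the KIF26B siRNA libraries, and KRT18 and CDH1 were also below both controls there, whereas EPCAM was lower in replicate 1 and higher in replicate 2. The part of these markers in the results was not tested. Of 5 markers of other cell types, CD3E was listed at 0, PTPRC and DCN were at or below 0.0278 FPKM, COL1A1 was between 4.74 and 8.69 FPKM and PECAM1 had no matched identifier.

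The promoters of GCLM and TXNRD1 are shown because they hold the core letters of the antioxidant response element, TGACNNNGC, through which NRF2 acts. The motif was searched on both strands in the 250 bases before each transcription start listed by RefSeq (GRCh38.p14), which has windows for 8 of the 9 genes and none for HMOX1. It was found in 4 of 9 windows (44.4%), against 10.9% of the 35116 windows of all genes. Capitals mark the motif, read as TGACTAAGC in GCLM and as TGACTTCGC and TGACAAAGC in the first and second TXNRD1 windows; the GCLM window and the second TXNRD1 window show it on the reverse strand.
GCLM, chr1:93909431-93909680, minus strand: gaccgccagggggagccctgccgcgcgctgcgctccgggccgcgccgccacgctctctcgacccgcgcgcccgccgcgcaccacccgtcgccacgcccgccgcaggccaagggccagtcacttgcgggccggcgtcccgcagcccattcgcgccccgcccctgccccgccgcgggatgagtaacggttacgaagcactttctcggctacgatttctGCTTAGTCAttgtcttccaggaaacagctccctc
TXNRD1 first window, chr12:104215529-104215778, plus strand: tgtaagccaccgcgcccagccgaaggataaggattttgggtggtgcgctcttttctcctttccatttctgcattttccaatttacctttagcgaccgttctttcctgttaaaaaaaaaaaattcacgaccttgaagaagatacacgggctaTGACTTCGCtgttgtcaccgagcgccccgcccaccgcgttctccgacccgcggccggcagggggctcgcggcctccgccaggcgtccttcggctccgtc
TXNRD1 second window, chr12:104286782-104287031, plus strand: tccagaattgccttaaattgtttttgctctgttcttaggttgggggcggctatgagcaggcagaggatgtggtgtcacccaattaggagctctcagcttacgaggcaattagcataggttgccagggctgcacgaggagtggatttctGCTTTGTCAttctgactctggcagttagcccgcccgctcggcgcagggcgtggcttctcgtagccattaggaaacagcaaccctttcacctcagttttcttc
PGD held the fourth match, TGACATTGC, between 193 and 201 bases before its start. The windows of GCLC, NQO1, SRXN1, OSGIN1 and TXN held none, which says only that these letters are not in those 250 bases.

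In control cells the 9 genes spanned a wide range of levels. TXN was the highest at 214 ± 7.81 FPKM (SD, n = 2), above 99.1% of the genes tested, followed by TXNRD1 at 91.3 ± 0.222, NQO1 at 61.0 ± 0.498 and PGD at 58.6 ± 0.95 FPKM. GCLC at 12.0 ± 0.856 and HMOX1 at 11.4 ± 0.394 FPKM overlapped each other in the 2 control libraries. SRXN1 at 8.84 ± 1.03, GCLM at 7.88 ± 0.232 and OSGIN1 at 3.82 ± 0.510 FPKM completed the order, and apart from GCLC and HMOX1 no neighbours overlapped. HCT116 cells without KIF26B siRNA thus carried transcripts of all 9 genes.

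**Figure D1:**
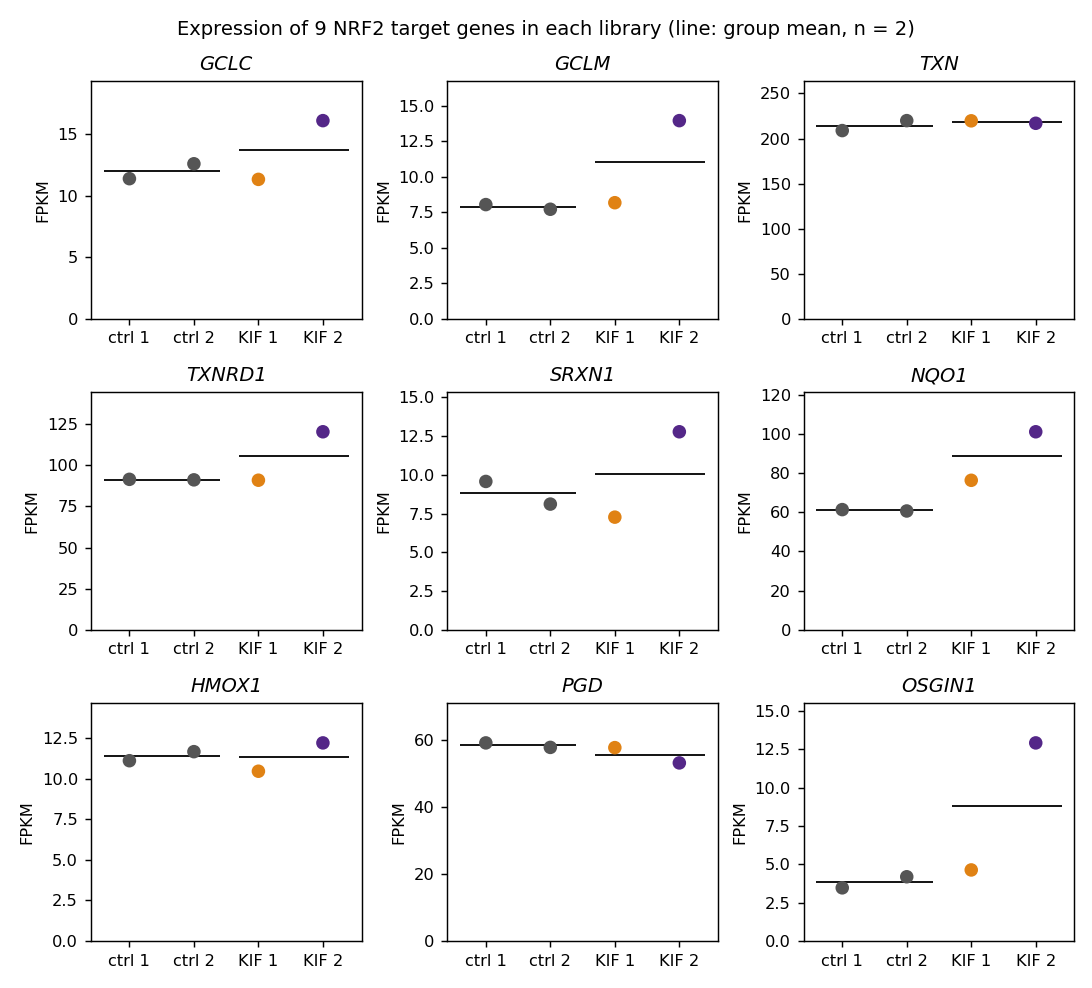
FPKM of each of the 9 NRF2 target genes (vertical axes, from 0) in each control and each KIF26B siRNA library; points are libraries and lines are group means of 2 libraries. KIF26B siRNA replicate 2 is the highest library for GCLC, GCLM, TXNRD1, SRXN1, NQO1, HMOX1 and OSGIN1, whereas TXN and PGD are not highest there.

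No member differed between the groups at an adjusted p below 0.05. The test was limma on log2(FPKM + 1), adjusted by Benjamini-Hochberg over all genes tested, and it called 0 of the 14523 genes (0%). limma-voom on the recovered reads also called 0. At an unadjusted P below 0.05, 1124 genes (7.74%) were higher and 1261 (8.68%) were lower in the KIF26B siRNA libraries. Among the 9 members, NQO1 was higher at this level and none was lower. NQO1 missed this level with a pseudocount of 0.1 (unadjusted P of 0.0568 from limma) and with an equal sum over the genes tested (0.0925). The median log2 fold change of the members was 0.16, with 7 above 0 and 2 below, against a median of −0.01 and 48.4% above 0 over all genes tested. When the libraries were instead scaled to an equal sum over the genes tested, 6 of 9 were above 0, the median of the members was 0.04 and that of all genes −0.12.

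Most members stood apart in 1 library. KIF26B siRNA replicate 2 was the highest of the 4 libraries for 7 of the 9 members, and the same held for 33.8% of all genes tested. In 6 of the 9, GCLC, GCLM, TXNRD1, SRXN1, NQO1 and OSGIN1, it was at least 1.25 times the highest other library, a limit set after the values were seen, which 14.2% of all genes reached. GCLC, TXNRD1, NQO1 and SRXN1 were near it, at 1.28, 1.32, 1.32 and 1.33 times. FPKM of replicate 2 are higher, relative to the other libraries, than a scaling by recovered reads would give. Counts at this limit under that scaling were not tested and may be lower. KIF26B siRNA replicate 1 passed this limit in 0 of the 9 members and in 8.23% of all genes. The median difference of the members from the control mean was −0.01 in KIF26B siRNA replicate 1 and 0.40 in replicate 2 on the log2(FPKM + 1) scale, against −0.02 and −0.0046 for all genes tested. Since each of these 2 values rests on 1 library, the difference between them has no replicate check. A difference between siRNAs and one between libraries of the same siRNA cannot be told apart here. In bulk libraries, more RNA per cell and more cells that express a gene cannot be told apart.

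**Figure D2:**
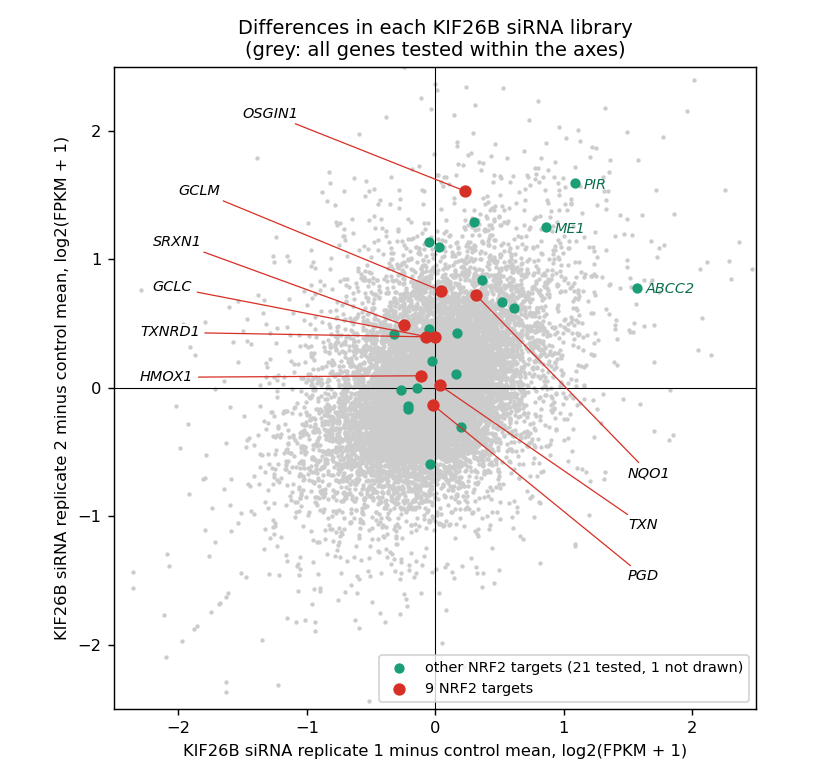
Difference from the control mean on the log2(FPKM + 1) scale in KIF26B siRNA replicate 1 (horizontal axis) and replicate 2 (vertical axis) for all genes tested that lie within the axes (grey), the 9 NRF2 targets (red) and 21 other NRF2 targets, of which 1 is not drawn (green). Of the red points, 6 lie between 0.39 and 1.53 on the vertical axis and between −0.25 and 0.32 on the horizontal axis, while PIR, ME1 and ABCC2 lie to the right on both.

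The glutathione pair came first. GCLC (chromosome 6, 53362139 to 53481768, GRCh37) encodes the catalytic subunit of glutamate-cysteine ligase, the rate-limiting enzyme of glutathione synthesis. Its values were 11.4 and 12.6 FPKM in the controls and 11.3 and 16.1 FPKM in KIF26B siRNA replicates 1 and 2. Replicate 1 lay just below both controls and replicate 2 above all others, so the groups overlapped. The log2 fold change was 0.16 (95% interval −0.40 to 0.73, adjusted p = 0.718 from limma).
GCLM (chromosome 1, 94350755 to 94375012), the modifier subunit that raises the activity of GCLC, was at 8.05 and 7.72 FPKM in the controls and at 8.18 and 14.0 FPKM in KIF26B siRNA replicates 1 and 2. Both libraries were above both controls, the first by less than the gap between the controls. Between groups GCLM differed by a log2 fold change of 0.40 (95% interval −0.36 to 1.16, adjusted p = 0.509 from limma). Relative to both controls, the GCLM read rate was 1.04 in replicate 1 (95% exact interval 0.961 to 1.13) and 1.78 in replicate 2 (1.66 to 1.91). These intervals and those given for other members cover counting error only. The ratio of GCLC to GCLM transcripts per length was 1.41 and 1.63 in the controls, 1.38 in KIF26B siRNA replicate 1 and 1.15 in replicate 2, lowest in the library where both were highest.

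The thioredoxin system split between its carrier and its reductase. TXN (chromosome 9, 113006090 to 113018787), the small disulfide reductase thioredoxin, was at 208.8 and 219.9 FPKM in the controls and at 219.7 and 216.9 FPKM in KIF26B siRNA replicates 1 and 2. All 4 libraries lay within the range of the controls. Its log2 fold change was 0.03 (95% interval −0.28 to 0.33, adjusted p = 0.917 from limma), and the sign turned under 3 of 9 alternative settings.
TXNRD1 (chromosome 12, 104609557 to 104744085), the selenoprotein that reduces thioredoxin with NADPH, was at 91.5 and 91.2 FPKM in the controls, at 91.0 FPKM in KIF26B siRNA replicate 1 and at 120.4 FPKM in replicate 2. The first 3 of these lay close together and the fourth apart. With 14596 reads, the rate in replicate 2 was 1.32 times that of both controls (95% exact interval 1.29 to 1.35). The log2 fold change of the groups was 0.19 (95% interval −0.30 to 0.69, adjusted p = 0.620 from limma). TXN transcripts were 2.28, 2.41 and 2.41 times as abundant as those of TXNRD1 in the controls and KIF26B siRNA replicate 1, and 1.80 times in replicate 2.
SRXN1 (chromosome 20, 627259 to 633844), sulfiredoxin, which repairs over-oxidized peroxiredoxins, was at 9.57 and 8.11 FPKM in the controls and at 7.27 and 12.8 FPKM in KIF26B siRNA replicates 1 and 2. The KIF26B siRNA libraries lay on opposite sides of the controls. Between groups SRXN1 differed by a log2 fold change of 0.12 (95% interval −0.69 to 0.93, adjusted p = 0.857 from limma). ENSG00000270299, a protein-coding gene of the GRCh37 annotation without a symbol, shares 2292 exon bases with SRXN1 on the same strand and had 12 reads over the 4 libraries. How reads in the shared bases were assigned is not given, so the SRXN1 values are uncertain.

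NQO1 (chromosome 16, 69740899 to 69760571), the quinone reductase most often used as an NRF2 readout, was the member with the largest moderated t. Its values were 61.4 and 60.7 FPKM in the controls and 76.4 and 101 FPKM in KIF26B siRNA replicates 1 and 2. Both KIF26B siRNA libraries were above both controls, and the gap between the controls was small. The group means were 61.0 ± 0.498 and 88.8 ± 17.5 FPKM (SD, n = 2 each). The log2 fold change was 0.52 (95% interval 0.03 to 1.01), with an unadjusted P of 0.0434 and an adjusted p of 0.294 from limma. Across 9 alternative settings with all libraries the log2 fold change ranged from 0.39 to 0.54 and the adjusted p from 0.209 to 0.426. The read rate relative to both controls was 1.25 in replicate 1 (95% exact interval 1.21 to 1.30) and 1.66 in replicate 2 (1.60 to 1.71). NQO1 was thus the 1 member whose rate was beyond counting error and above the controls' own gap in each KIF26B siRNA library.
HMOX1 (chromosome 22, 35776354 to 35790207), heme oxygenase 1, which degrades heme and is strongly held down by BACH1, was at 11.1 and 11.7 FPKM in the controls and at 10.5 and 12.2 FPKM in KIF26B siRNA replicates 1 and 2. The 2 groups overlapped, with the KIF26B siRNA libraries on either side of the controls. The log2 fold change was −0.01 (95% interval −0.37 to 0.36, adjusted p = 0.976 from limma), and it turned to 0.01 under median-of-ratios scaling. The rate in replicate 2 was 1.07 times that of both controls, with an exact interval of 0.964 to 1.18 that includes 1.
PGD (chromosome 1, 10458649 to 10480568), the pentose phosphate enzyme that yields NADPH from phosphogluconate, was at 59.2 and 57.9 FPKM in the controls and at 57.8 and 53.3 FPKM in KIF26B siRNA replicates 1 and 2. Neither KIF26B siRNA library reached the lower control, and replicate 1 missed it by less than the gap between the controls. For PGD the log2 fold change was −0.08 (95% interval −0.40 to 0.24, adjusted p = 0.766 from limma).

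OSGIN1 (chromosome 16, 83964916 to 83999937), an oxidative stress-induced growth inhibitor, had the largest log2 fold change of the 9. It was at 3.46 and 4.18 FPKM in the controls (235 and 357 reads), at 4.63 FPKM in KIF26B siRNA replicate 1 (342 reads) and at 12.9 FPKM in replicate 2 (807 reads). Replicate 1 lay above the higher control by less than the gap between the controls, and replicate 2 lay far above all others. The group means were 3.82 ± 0.510 and 8.77 ± 5.86 FPKM (SD, n = 2 each). The log2 fold change was 0.88 (95% interval −0.45 to 2.21, adjusted p = 0.426 from limma). Relative to both controls the read rate was 3.34 in replicate 2 (95% exact interval 3.0 to 3.72) and 1.20 in replicate 1 (1.05 to 1.37), while control replicate 2 was itself 1.21 times control replicate 1 (1.02 to 1.43). Exons of OSGIN1 overlap those of MLYCD by 457 bases on the same strand in the GRCh37 annotation, and MLYCD had 1158 reads over the 4 libraries, so the OSGIN1 values are uncertain to that extent.

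**Figure D3:**
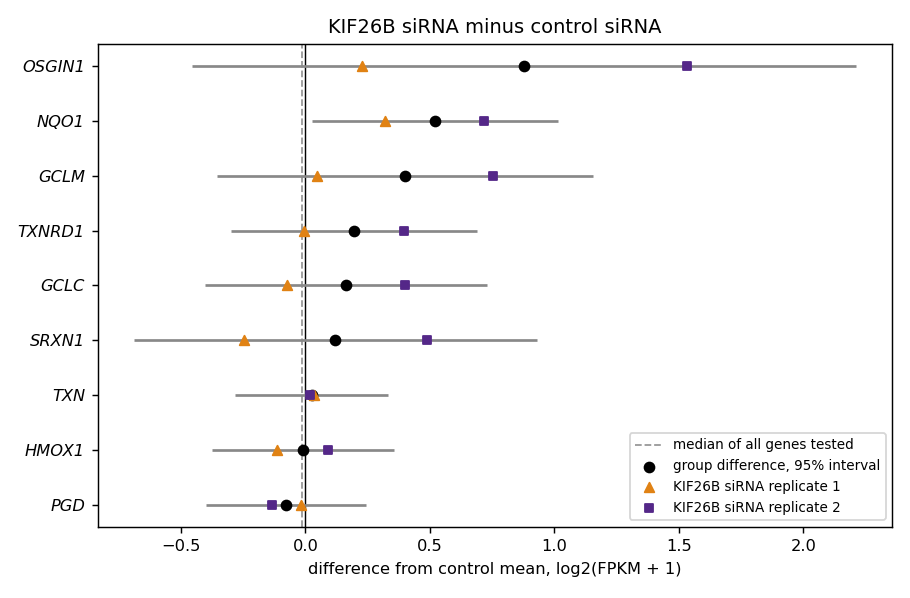
Difference from the control mean on the log2(FPKM + 1) scale (horizontal axis) for the 9 members; circles are group differences with limma's 95% intervals, triangles are KIF26B siRNA replicate 1 and squares replicate 2, with a dashed line at the median of all genes tested. The interval of NQO1, 0.03 to 1.01, is the only 1 of the 9 that lies above 0, and before adjustment over all genes.

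Groups did not overlap for 4 members. NQO1, GCLM and OSGIN1 had both KIF26B siRNA libraries above both controls (24.9% of all genes tested did), and PGD had both below (27.8% of all genes). With 2 libraries a group this pattern was common in the whole table. When KIF26B siRNA replicate 1 was left out, so that only the library with the lower KIF26B value was set against both controls, limma called NQO1 (0.72), GCLM (0.75) and OSGIN1 (1.53 on the log2 scale) at an adjusted p of 0.0463 each. In that fit the lone library is assumed to vary like the controls, and 1260 genes (8.68%) were called higher and 1247 (8.59%) lower. TXNRD1 (0.39, adjusted p = 0.0523 from limma), GCLC (0.40, 0.0819) and SRXN1 (0.49, 0.0955) did not pass in it. When KIF26B siRNA replicate 2 was left out instead, limma called 0 genes, and the log2 fold changes of GCLC, TXNRD1 and SRXN1 turned to −0.07, −0.01 and −0.25, while that of OSGIN1 was 0.23 and that of NQO1 0.32 (adjusted p = 0.0790 from limma).

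The proteins that control NRF2 were read from a list of 11 genes, all tested. None passed an adjusted p below 0.05, and at an unadjusted P below 0.05 NFE2L1 was higher and NFE2L2 lower. These are 9.09% of the list in each direction, near the 7.74% and 8.68% of all genes. NFE2L2, which encodes NRF2 itself, was at 15.6 and 14.4 FPKM in the controls and at 10.0 and 11.9 FPKM in KIF26B siRNA replicates 1 and 2. Its transcript was thus lower in both KIF26B siRNA libraries (log2 fold change −0.42, standard error 0.14, adjusted p = 0.288 from limma), including replicate 2, where 7 of the target genes were highest. NRF2 is known to be controlled mainly by protein degradation, which these libraries do not measure. KEAP1 was at 17.3 and 17.9 FPKM in the controls and at 21.1 and 17.7 FPKM in KIF26B siRNA replicates 1 and 2 (adjusted p = 0.678 from limma). BACH1 was at 5.82 and 4.92 FPKM in the controls and at 4.15 and 4.64 FPKM in the KIF26B siRNA libraries (adjusted p = 0.449 from limma).
The small MAF genes, which encode the DNA-binding partners of NRF2, were each highest in KIF26B siRNA replicate 2. The same held for 5 of the 11 regulators (45.5%) and for 33.8% of all genes tested. MAFG was at 22.3 and 21.5 FPKM in the controls and at 23.5 and 32.3 FPKM in replicates 1 and 2. MAFK was at 25.7 and 24.6 FPKM in the controls and at 20.5 and 41.5 FPKM. MAFF was at 9.54 and 10.1 FPKM in the controls and at 6.88 and 13.1 FPKM. For MAFK and MAFF replicate 1 lay below both controls and replicate 2 above, and the adjusted p from limma was 0.463, 0.796 and 0.960 for MAFG, MAFK and MAFF. SQSTM1, which encodes the KEAP1-binding autophagy receptor p62 and was named after its values were seen, was at 34.4 and 34.8 FPKM in the controls, 42.4 in replicate 1 and 87.9 in replicate 2 (adjusted p = 0.382 from limma). NFE2L1, a relative of NRF2, was at 31.0 and 32.5 FPKM in the controls and at 42.1 and 46.0 FPKM in the KIF26B siRNA libraries (adjusted p = 0.254 from limma).

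**Figure D4:**
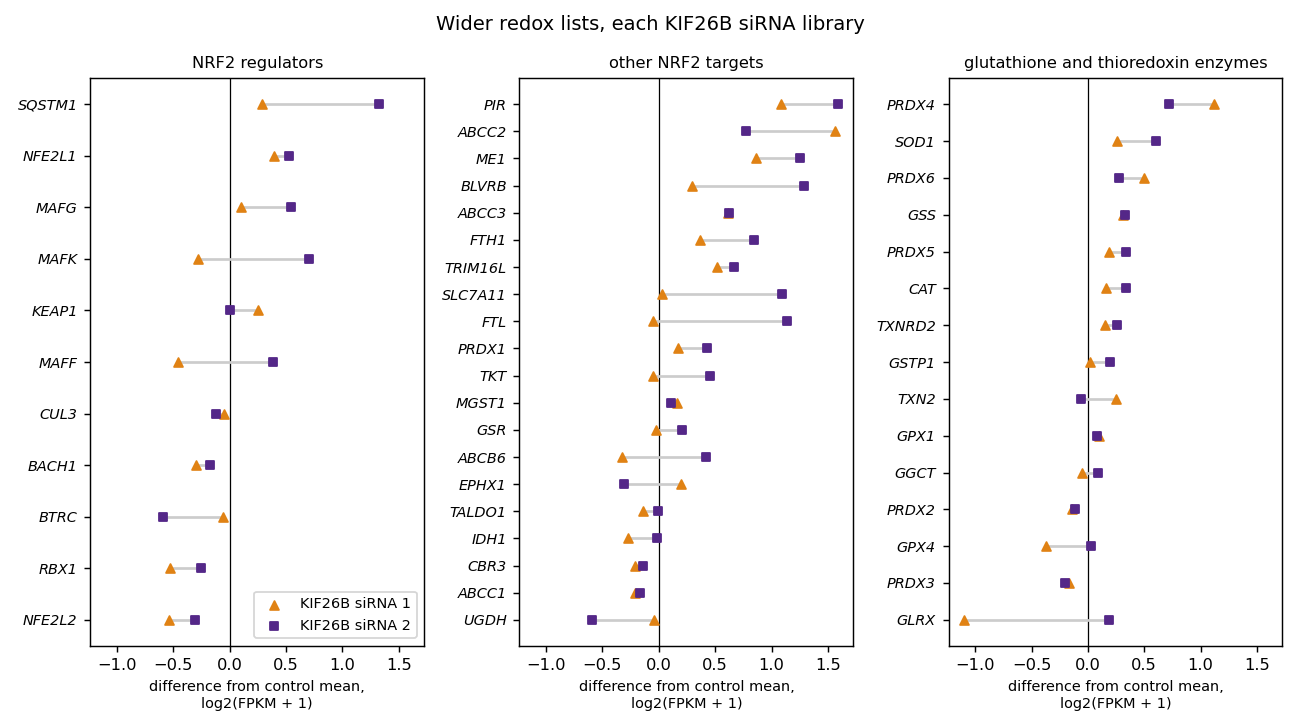
Difference from the control mean on the log2(FPKM + 1) scale (horizontal axes) in KIF26B siRNA replicate 1 (triangles) and replicate 2 (squares) for the tested genes of 3 lists: 11 NRF2 regulators, 21 other NRF2 targets, of which 1 is not drawn, and 15 glutathione and thioredoxin enzymes. PIR, ABCC2 and ME1 lie at or above 0.78 in both libraries, whereas SLC7A11, FTL and BLVRB are above 1 only in replicate 2.

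A further 27 genes known as NRF2 targets were set beside the members, of which 21 passed the filter. AKR1B10, AKR1C1, AKR1C2, AKR1C3, CBR1 and GPX2 did not, and only their reads are given below. None passed an adjusted p below 0.05. At an unadjusted P below 0.05, 6 of the 21 were higher (28.6%, against 7.74% of all genes) and 0 were lower (8.68% of all genes). These were PIR, ABCC2, ME1, ABCC3, FTH1 and TRIM16L, of which FTH1 missed that level with a pseudocount of 0.1 and with an equal sum (unadjusted P of 0.0524 and 0.0764 from limma). At the study's thresholds, an unadjusted P below 0.05 with a log2 fold change beyond 1, 3 of the 21 were higher, against 0.813% of all genes, and 0 were lower, against 0.606%. Of the 9 members 0 passed these thresholds in either direction. The median log2 fold change of the 21 other targets was 0.20. Of these, 14 were above 0 (66.7%, against 48.4% of all genes) and 7 below.
PIR, an iron-binding nuclear protein, had the largest difference. It was at 3.95 and 3.28 FPKM in the controls and at 8.78 and 12.9 FPKM in KIF26B siRNA replicates 1 and 2, a log2 fold change of 1.34 (standard error 0.22, adjusted p = 0.242 from limma). ME1, the cytosolic malic enzyme that yields NADPH, was at 9.31 and 10.2 FPKM in the controls and at 18.5 and 24.6 FPKM in the KIF26B siRNA libraries, a log2 fold change of 1.05 (standard error 0.18, adjusted p = 0.242 from limma). In both genes each KIF26B siRNA library was well above each control.
The export pumps ABCC2 and ABCC3, which carry glutathione conjugates out of the cell, also lay above the controls in each library. ABCC2 was at 6.12 and 5.87 FPKM in the controls and at 19.7 and 11.0 FPKM in KIF26B siRNA replicates 1 and 2, so here replicate 1 was the higher. ABCC3 was at 5.93 and 6.19 FPKM in the controls and at 9.77 and 9.87 FPKM in the KIF26B siRNA libraries. Their log2 fold changes were 1.17 and 0.62 (standard errors 0.30 and 0.11, adjusted p = 0.253 and 0.242 from limma). TRIM16L was at 1.19 and 0.861 FPKM in the controls and at 1.89 and 2.20 FPKM in the KIF26B siRNA libraries.
The ferritin chains store iron. FTH1, the heavy chain, was at 454 and 459 FPKM in the controls and at 587 and 818 FPKM in KIF26B siRNA replicates 1 and 2. FTL, the light chain, named after its values were seen, was at 1017 and 1032 FPKM in the controls, 988 in replicate 1 and 2251 in replicate 2. Both have many processed pseudogenes, so the assignment of their reads is uncertain. SLC7A11, the cystine transporter, was at 1.51 and 1.74 FPKM in the controls, 1.67 in replicate 1 and 4.59 in replicate 2. BLVRB, biliverdin reductase B, was at 48.9 and 49.2 FPKM in the controls, 60.5 in replicate 1 and 121 in replicate 2. Replicate 2 was the highest library for each of these, while replicate 1 was below both controls for FTL, between them for SLC7A11 and above both for BLVRB. SLC7A11 and BLVRB were also named after their values were seen. For the genes below the filter, reads are given for the 2 controls and then for KIF26B siRNA replicates 1 and 2. AKR1B10 had 4, 15, 17 and 66 reads and AKR1C1 had 28, 24, 24 and 78. AKR1C2 had 10, 17, 16 and 8 reads and AKR1C3 had 60, 61, 47 and 37. GPX2 had 17, 12, 15 and 8 reads and CBR1 had 0, 0, 1 and 2. These genes are near the floor.
The list was not uniform. Of the 21 genes tested, 4 had lower values after KIF26B siRNA without overlap of the groups (19.0%, against 27.8% of all genes). In 9 the groups separated towards higher values (42.9%, against 24.9% of all genes). The 4 include UGDH. UGDH was at 17.7 and 17.3 FPKM in the controls, 17.0 in replicate 1 and 11.3 in replicate 2, against the direction of the glutathione genes in that library. It was named after its values were seen.

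Among 17 enzymes of glutathione and thioredoxin metabolism, 16 had a matched identifier and 15 were tested. None passed an adjusted p below 0.05, and at an unadjusted P below 0.05 3 were higher and 0 lower, against 7.74% and 8.68% of all genes. Of the 3, PRDX6 and GSS missed that level with a pseudocount of 0.1 (unadjusted P of 0.0593 and 0.0583 from limma) with an equal sum (0.127 and 0.162) and with an equal sum without mitochondrial genes (0.117 and 0.0962), which left PRDX4, and PRDX6 missed it with limma-voom (0.0506). PRDX4, the peroxiredoxin of the endoplasmic reticulum, was at 21.8 and 23.8 FPKM in the controls and at 50.7 and 38.0 FPKM in KIF26B siRNA replicates 1 and 2 (log2 fold change 0.92, standard error 0.18, adjusted p = 0.242 from limma). PRDX6 was at 75.1 and 76.3 FPKM in the controls and at 107 and 91.9 FPKM in the KIF26B siRNA libraries. GSS, which completes glutathione after GCLC and GCLM, was at 15.1 and 14.0 FPKM in the controls and at 18.3 and 18.6 FPKM in the KIF26B siRNA libraries. For PRDX4 and PRDX6 replicate 1 was the higher library, as it was for TXN and PGD among the members. KIF26B siRNA replicate 2 reached 1.25 times the highest other library in 1 of these 15 genes, SOD1 (named after its values were seen). The same limit was reached in 6 of the 9 members, 8 of the 21 other targets and 14.2% of all genes tested. TXNIP, the thioredoxin inhibitor, also named after its values were seen, was listed at 0 in all 4 libraries.

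The 3 protein-coding genes whose 4 differences from the control mean lay nearest to those of NQO1, among 11204 compared over 4 libraries, were INTS3, POMGNT1 and PIGL. Their Euclidean distances were between 0.0333 and 0.0366 on the log2 scale. POMGNT1, for example, was at 11.9 and 11.7 FPKM in the controls and at 15.2 and 20.5 FPKM in KIF26B siRNA replicates 1 and 2. With 4 libraries such a likeness is a description of these values.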

How the data were processed

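RNA of HCT116 cells was analysed in 4 libraries. According to the study's methods, poly(A) mRNA was sequenced as 150-base paired-end reads and aligned with HISAT2. The submitters' processing notes name HISAT2 2.0.5, featureCounts 1.5.0-p3 and hg38, whereas the methods name hg19, and the annotation is not given in the sources used here. The values the authors deposited are FPKM, 1 per gene and library, a unit read from the values. Symbols (56513 of 58735 identifiers) and gene coordinates come from GENCODE for GRCh37. Whether counting used strand is not given, so the assignment of reads in overlapping genes is uncertain.

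Reads per gene were recovered with the annotated exon length where it gave whole numbers, within 0.002 reads, in all 4 libraries (17506 genes). Otherwise the smallest length that did so was used, which gives the fewest reads, so such counts may be too low. Whole reads were obtained for 100% of the 34638 genes above 0. They serve for depth, for exact intervals of rate ratios (divided by the authors' library divisors) and for limma-voom. In KIF26B siRNA replicate 2 the divisor, 18068934, was below the recovered reads, 18775518, whereas in each other library it was above them. FPKM and rate ratios of that library are therefore higher than a scaling by recovered reads would give, relative to the other libraries.

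limma was fitted on log2(FPKM + 1) to genes averaging 1 FPKM or more over the libraries, without covariates. It took the place of the study's DESeq2, since the deposited values are not counts. DESeq2 was not run on the recovered reads. The log2(FPKM + 1) scale understates changes of low genes. Nothing in the labels says that replicates came from separate cultures, so p-values measure the spread between these libraries. An exact permutation test of 2 against 2 libraries cannot go below 0.333 and is not reported. The fit was tested on simulated data. Alternatives were the replicate block, 2 other filters, a pseudocount of 0.1, a variance trend, 3 scalings, limma-voom and leaving out each library.

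The members and lists were chosen with earlier results of these data known. Genes named were the 9 members, KIF26B, 6 NRF2 regulators, the genes of the other lists at an unadjusted P below 0.05 and the 3 genes nearest to the member with the largest t. Others are said to be named after their values were seen, or are markers, overlapping genes or genes below the filter. The values of 1 gene of the other targets are not reported here, though it is counted in its list. R 4.3.3, limma 3.58.1, Python 3.11.15, numpy 2.4.6, pandas 2.3.3, scipy 1.17.1 and matplotlib 3.10.9 were used.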

Additional observations from a re-analysis of the deposited data

How the results depend on the processing

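With all 4 libraries, 0 genes were called at the 0.05 level of the adjusted p in each of the 9 alternatives run, which tested 14523 genes, or 34638 with no filter and 12682 with at least 1 FPKM in every library. The log2 fold changes of NQO1, GCLC, GCLM, TXNRD1, SRXN1, OSGIN1 and PGD kept their sign in those 9. TXN, at 0.03, turned to −0.10 with an equal sum over the genes tested, −0.022 with an equal sum without mitochondrial genes and −0.018 with limma-voom, and HMOX1, at −0.01, turned to 0.0061 with median-of-ratios scaling. Counts over all genes moved more. At an unadjusted P below 0.05, 1261 genes lower and 1124 higher became 2186 and 2192 with no filter on low values, and 2143 and 643 with an equal sum. At the study's thresholds, 88 lower and 118 higher became 52 and 69 with at least 1 FPKM in every library and 203 and 217 with a pseudocount of 0.1, and the lower count became 148 with an equal sum and 245 with limma-voom. In the 3 wider redox lists, 1 gene lower at an unadjusted P below 0.05 became 0 with the replicate block, 4 with an equal sum and 2 with no filter, with 1 FPKM in every library, with a variance trend, with an equal sum without mitochondrial genes and with limma-voom. The difference of KIF26B, −0.09, was −0.52 with a pseudocount of 0.1. The causes were not tested.

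Leaving out 1 library at a time gave 0 to 1247 genes lower and 0 to 1260 higher at an adjusted p below 0.05, 234 to 3435 lower and 265 to 3326 higher at an unadjusted P below 0.05, and 123 to 223 lower and 156 to 334 higher at the study's thresholds. The wider lists then held 0 to 9 genes lower and 4 to 24 higher. The members' median ranged from −0.01 (−0.0060) to 0.40, and its distance from the median of all genes from 0.014 to 0.40. The log2 fold changes ranged from 0.32 to 0.72 for NQO1, −0.11 to 0.093 for HMOX1, −0.074 to 0.40 for GCLC, 0.048 to 0.75 for GCLM, −0.01 (−0.0060) to 0.39 for TXNRD1, −0.25 to 0.49 for SRXN1, 0.23 to 1.53 for OSGIN1, −0.13 to −0.02 for PGD and −0.010 to 0.064 for TXN. MAFF ranged from −0.46 to 0.38 and MAFK from −0.28 to 0.70. For NQO1, HMOX1, GCLC, GCLM, TXNRD1, SRXN1 and OSGIN1 the highest value came from leaving out KIF26B siRNA replicate 1.

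The replicate numbers are shared by the groups, but libraries of the same number did not deviate together (correlation −0.003). With 2 libraries a group this compares 1 difference with 1 other, so it cannot exclude a shared culture or preparation. With the replicate block, 861 genes were lower and 864 higher at an unadjusted P below 0.05, 98 and 135 at the study's thresholds, and 0 at an adjusted p below 0.05, with an adjusted p of 0.426 for NQO1 and 0.419 for OSGIN1 from limma. At an unadjusted P below 0.05 the 1 member called was then OSGIN1 (0.0476) in place of NQO1 (0.0546), and NFE2L2 (0.0823), PRDX6 (0.0915) and GSS (0.125) were no longer called. With 2 libraries a group and the KIF26B siRNA libraries far apart, the interval of OSGIN1 spans −0.45 to 2.21, a range that includes 0.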
